A study of Mus musculus with 6 samples.

Results

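The genes described here encode the subunits and assembly factors of mitochondrial complex I, measured by RNA sequencing in cultured primary mouse adipocytes. They were taken by symbol, as every row of the deposited expression table whose symbol starts with Ndufa, Ndufb, Ndufc, Ndufs or Ndufv. The rule found 45 of the 35976 rows, and no matching symbol had the pseudogene suffix that the rule leaves out. All 45 passed the filter on low values and were tested, among 14211 genes in all. By known role, 36 encode subunits of the complex, 7 encode assembly factors (Ndufaf1 to Ndufaf7), and 2 encode proteins that are not part of it, Ndufa4 and Ndufa4l2. The 8th Ndufaf gene, Ndufaf8, stands in the table under an older name, 1810043H04Rik, and Ndufb1 was not analysed here. The 45 genes lie on 16 chromosomes.

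All cells carried Ppargc1a alleles flanked by loxP sites (Ppargc1a(fl/fl)). The product of Ppargc1a is PGC-1alpha, which switches on mitochondrial genes by binding transcription factors. Rbm43 belongs to the RNA-binding motif proteins. Of the 3 groups, the first received an adenovirus encoding Cre, the recombinase that cuts out loxP-flanked DNA, and an siRNA against Rbm43 (Cre/Rbm43 cells). The second received an adenovirus encoding GFP and the Rbm43 siRNA (GFP/Rbm43 cells), and the third received the GFP virus and a control siRNA (GFP/control cells). Each group has 2 libraries, from cells fully differentiated after these treatments. The design text calls them biological duplicates and names no separate animals, so p-values measure the spread between these libraries, which may be technical. No group here pairs the Cre virus with control siRNA, so Cre virus was compared with GFP virus only under Rbm43 siRNA.

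Complex I is the first enzyme of the mitochondrial respiratory chain. Its peripheral arm oxidizes NADH and passes the electrons along iron-sulfur clusters to ubiquinone, and its membrane arm uses the released energy to pump protons. A conserved core carries out the catalysis, encoded partly in the nucleus and partly in mitochondrial DNA, and many accessory subunits surround it and stabilize it. Assembly factors help to build the modules and leave before the enzyme is complete. In adipocytes the respiratory chain serves fat synthesis, fat oxidation and, in thermogenic fat, heat production, and PGC-1alpha is a known activator of its genes together with the nuclear receptor ERRalpha (Esrra) and the factors NRF1 and GABP.

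Values are normalized counts, that is, reads per gene divided by 1 size factor per library. Libraries held 15775398 to 21961724 reads in genes, the lowest in replicate 2 of the GFP/control cells. Changes are log2 fold changes ± standard error (SE) from limma on log2(normalized count + 1), and a gene is said to have risen or fallen where the Benjamini-Hochberg adjusted p over all genes tested was under 0.05. The siRNA target went down as labelled: Rbm43 had 53.8 and 32.5 in Cre/Rbm43 cells, 43.7 and 46.6 in GFP/Rbm43 cells and 185 and 224 in GFP/control cells, a change of −2.15 ± 0.21 (adjusted p = 3.59e-07) in GFP/Rbm43 against GFP/control cells. Ppargc1a had 463 and 469 in Cre/Rbm43 cells, 399 and 423 in GFP/Rbm43 cells and 163 and 202 in GFP/control cells. This whole-gene count does not show whether the loxP-flanked stretch was cut out. Adiponectin (Adipoq), a hormone of fat cells, had 18345 and 18218 in Cre/Rbm43 cells, 22453 and 23077 in GFP/Rbm43 cells and 22094 and 21331 in GFP/control cells. Leptin (Lep), from the same list of 10 adipocyte markers, had 90.0 and 84.3 in Cre/Rbm43 cells, 102 and 119 in GFP/Rbm43 cells and 123 and 147 in GFP/control cells. Of 4 skeletal muscle markers, Myh4 and Ckm were at 0 in all 6 libraries, Mylpf was too low to be tested, and Acta1 had 796 and 828 in Cre/Rbm43 cells, 590.4 and 507 in GFP/Rbm43 cells and 552 and 506 in GFP/control cells. In bulk samples such as these, fewer cells of a type and less RNA per cell cannot be told apart.

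Promoters are shown for 5 of the genes, because they represent the responses described below. Ndufc1 and Ndufb6 were among the largest rises, Ndufb3 and Ndufa10 were the subunits that did not rise, and Ndufaf4 was the assembly factor with the largest change. The sequences are from RefSeq on GRCm38.p6 and run from 250 bases before the start site to 50 after it, 5′ to 3′ on the gene's strand. Capitals mark a match to 1 of 4 motifs searched on both strands: the NRF1 palindrome whose letters are the capitals in Ndufaf4, CAAGGTCA of ERR-type receptors, CCGGAAG of ETS factors such as GABP, and AAGATGGCG of YY1.
Ndufc1 (chr3:51408906-51409205, minus strand): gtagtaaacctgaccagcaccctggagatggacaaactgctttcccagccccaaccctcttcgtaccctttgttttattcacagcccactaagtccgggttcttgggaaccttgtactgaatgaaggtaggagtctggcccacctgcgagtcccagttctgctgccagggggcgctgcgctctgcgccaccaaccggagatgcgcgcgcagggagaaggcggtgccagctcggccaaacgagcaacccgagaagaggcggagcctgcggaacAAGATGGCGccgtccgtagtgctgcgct
Ndufb6 (chr4:40279372-40279671, minus strand): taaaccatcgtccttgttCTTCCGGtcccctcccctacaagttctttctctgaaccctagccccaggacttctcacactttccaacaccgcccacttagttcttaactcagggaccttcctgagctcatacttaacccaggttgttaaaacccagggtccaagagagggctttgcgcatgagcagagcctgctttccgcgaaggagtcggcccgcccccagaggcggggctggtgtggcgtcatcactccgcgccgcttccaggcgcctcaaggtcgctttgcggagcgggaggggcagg
Ndufaf4 (chr4:24897833-24898132, plus strand): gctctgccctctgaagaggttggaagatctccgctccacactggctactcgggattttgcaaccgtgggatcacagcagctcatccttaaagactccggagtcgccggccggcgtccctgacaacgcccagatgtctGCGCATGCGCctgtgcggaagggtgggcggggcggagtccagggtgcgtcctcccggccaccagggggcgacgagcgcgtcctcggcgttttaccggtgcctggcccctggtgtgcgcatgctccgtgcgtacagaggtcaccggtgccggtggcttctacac
Ndufb3 (chr1:58586147-58586446, plus strand): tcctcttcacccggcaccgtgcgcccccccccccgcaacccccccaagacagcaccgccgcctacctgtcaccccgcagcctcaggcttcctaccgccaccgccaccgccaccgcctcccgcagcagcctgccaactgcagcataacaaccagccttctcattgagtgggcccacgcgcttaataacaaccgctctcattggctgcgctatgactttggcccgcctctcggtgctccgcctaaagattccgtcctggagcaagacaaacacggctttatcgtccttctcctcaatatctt
Ndufa10 (chr1:92473709-92474008, minus strand): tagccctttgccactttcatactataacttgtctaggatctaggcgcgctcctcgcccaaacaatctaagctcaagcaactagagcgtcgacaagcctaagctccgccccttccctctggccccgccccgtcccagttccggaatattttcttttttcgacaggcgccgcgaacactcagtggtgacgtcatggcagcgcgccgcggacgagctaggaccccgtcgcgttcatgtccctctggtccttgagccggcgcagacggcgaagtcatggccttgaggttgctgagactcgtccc
Ndufc1 has the YY1 letters just after its start, Ndufb6 the ETS letters on the reverse strand, and Ndufaf4 the NRF1 palindrome, while Ndufb3 and Ndufa10 hold none of the 4 in this window. These 5 were picked for how they responded, and matches and responses did not always go together. The promoters found for Ndufa5 and Ndufa12, which also rose with Rbm43 siRNA, hold none, and Ndufaf5 holds the NRF1 letters but passed in no comparison. A promoter was found for 39 of the 45 genes, and the other 6 are not counted. Of the 39, 14 hold a match, and 13 of these rose with Rbm43 siRNA, while 25 hold none, and 21 of these rose. Among the 39, the NRF1 letters occurred in 3 (7.69%, against 1.07% of 27025 genes), in Ndufa11, Ndufaf4 and Ndufaf5. The YY1 letters occurred in 5 (12.8%, against 1.64%), in Ndufa9, Ndufc1, Ndufs4, Ndufs6 and Ndufs7. The ETS letters occurred in 5 (12.8%, against 9.93%), in Ndufaf1, Ndufb6, Ndufb7, Ndufs3 and Ndufs8. The ERR letters occurred in 1, Ndufs5 (2.56%, against 1.76%). The median GC content of the genes' promoters was 59.3%, against 52.7% of all promoters, and their median number of CpG sites was 20, against 7. The part of this base composition in the motif shares was not tested. The 27025 genes include genes that were not tested for changes here, unlike the 39. No gene carried matches to more than 1 of the 4 motifs.

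The first comparison asked what Rbm43 siRNA did to these genes in cells that kept Ppargc1a (GFP/Rbm43 against GFP/control cells). Of the 45 genes, 38 rose and 1 fell, against 13.5% rising and 9.76% falling among all genes tested. The median change was 0.45, a 1.36-fold rise, against a median of −0.01 over all genes. The rise reached nearly every subunit, 34 of 36, and 3 of the 7 assembly factors. The changes were of moderate size, none of them reaching a doubling: the largest was 0.89 for Ndufa5, and the smallest that passed was 0.27 for Ndufa2. Without limma's trend of variance on expression, 26 of the 45 rose. For 39 genes both GFP/Rbm43 libraries lay above both GFP/control libraries, which was so for 29.2% of all genes.

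**Figure D1:**
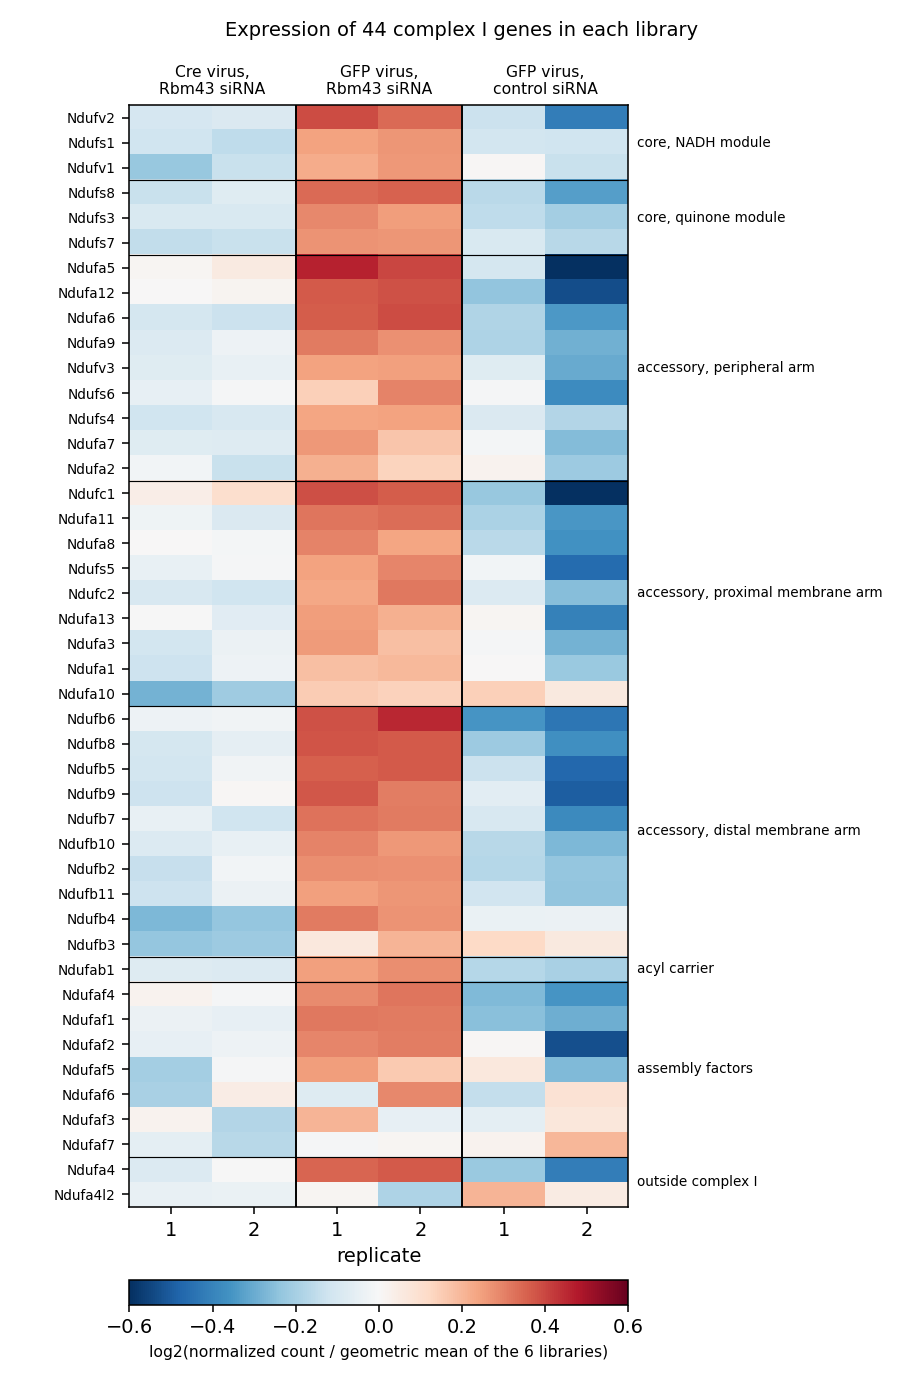
Expression of 44 of the genes in each of the 6 libraries, as log2 of the normalized count over the gene's geometric mean across libraries (color scale, −0.6 to 0.6), with genes in rows grouped by role and libraries in columns by group. The middle pair of columns, GFP/Rbm43 cells, is the highest for most rows, and replicate 2 of the GFP/control cells is the lowest for many.

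The second comparison asked what Cre virus did in cells that all had Rbm43 siRNA (Cre/Rbm43 against GFP/Rbm43 cells). Here 35 of the 45 genes fell and 0 rose, against 5.88% falling and 2.62% rising among all genes tested. At an unadjusted p under 0.05, 41 were lower and 0 higher by limma, and edgeR and DESeq2 also called 0 higher. The median change was −0.35, that is, 0.784 of the level in GFP/Rbm43 cells. All 7 nuclear core subunits and all 10 subunits of the distal membrane arm fell, and 32 of the 36 subunits in all. For 42 genes both Cre/Rbm43 libraries lay below both GFP/Rbm43 libraries, against 27.5% of all genes. These calls rest on a spread borrowed across genes of like expression: with limma's trend of variance on expression left out, 0 of 14211 genes passed the adjustment in this comparison, while 32 of the 45 had an unadjusted p under 0.05. On the recovered reads, edgeR called 38 of the 45 lower and DESeq2 called 31. Leaving out a Cre/Rbm43 library, which leaves 1 in that group, lowered the number of calls both among the members and over all genes tested. The median change of the 45 genes was then −0.33 (without replicate 1) and −0.36 (without replicate 2). Falls called in each of the 6 fits that left out 1 library were those of Ndufv1, Ndufv2, Ndufs1, Ndufs3, Ndufs4, Ndufs7, Ndufs8, Ndufa4, Ndufa6, Ndufa9, Ndufa10, Ndufab1, Ndufb3, Ndufb4, Ndufb6, Ndufb8, Ndufb10 and Ndufc2. The first and second comparisons share the GFP/Rbm43 libraries, on opposite sides of the difference.

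The third comparison set Cre/Rbm43 against GFP/control cells, which differ in both virus and siRNA. Of the 45 genes, 12 rose and 3 fell, against 8.47% and 6.28% of all genes, and 30 did not pass. The median change was 0.13, a 1.09-fold level, and it was 0.21 and 0.01 without GFP/control replicates 1 and 2. For 19 genes both Cre/Rbm43 libraries lay above both GFP/control libraries, against 27.4% of all genes, and for 5 they lay below, against 27.2%. None of the 7 nuclear core subunits passed, with changes from −0.12 to 0.18. The 12 that rose were Ndufa4, Ndufa5, Ndufa8, Ndufa9, Ndufa11, Ndufa12, Ndufb5, Ndufb6, Ndufb8, Ndufc1, Ndufaf1 and Ndufaf4, and the 3 that fell were Ndufa10, Ndufb3 and Ndufb4. Called the same way in each of the 6 fits that left out 1 library were Ndufa12, Ndufb6 and Ndufc1 among the 12, and Ndufa10 and Ndufb3 among the 3. The count of rises was 26 without GFP/control replicate 1 and 7 without GFP/control replicate 2, and it was 4 and 3 without Cre/Rbm43 replicates 1 and 2. Without GFP/control replicate 2 the rises of Ndufa5, Ndufa9, Ndufa11, Ndufb5 and Ndufb8 were not called, and the values of Ndufa4, Ndufa5, Ndufa8, Ndufa11, Ndufa12, Ndufb5, Ndufb8 and Ndufc1 moved by over 1.5 times. Without replicate 1 those of Ndufa5 and Ndufb5 moved as much, to 0.85 and 0.41.

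**Figure D2:**
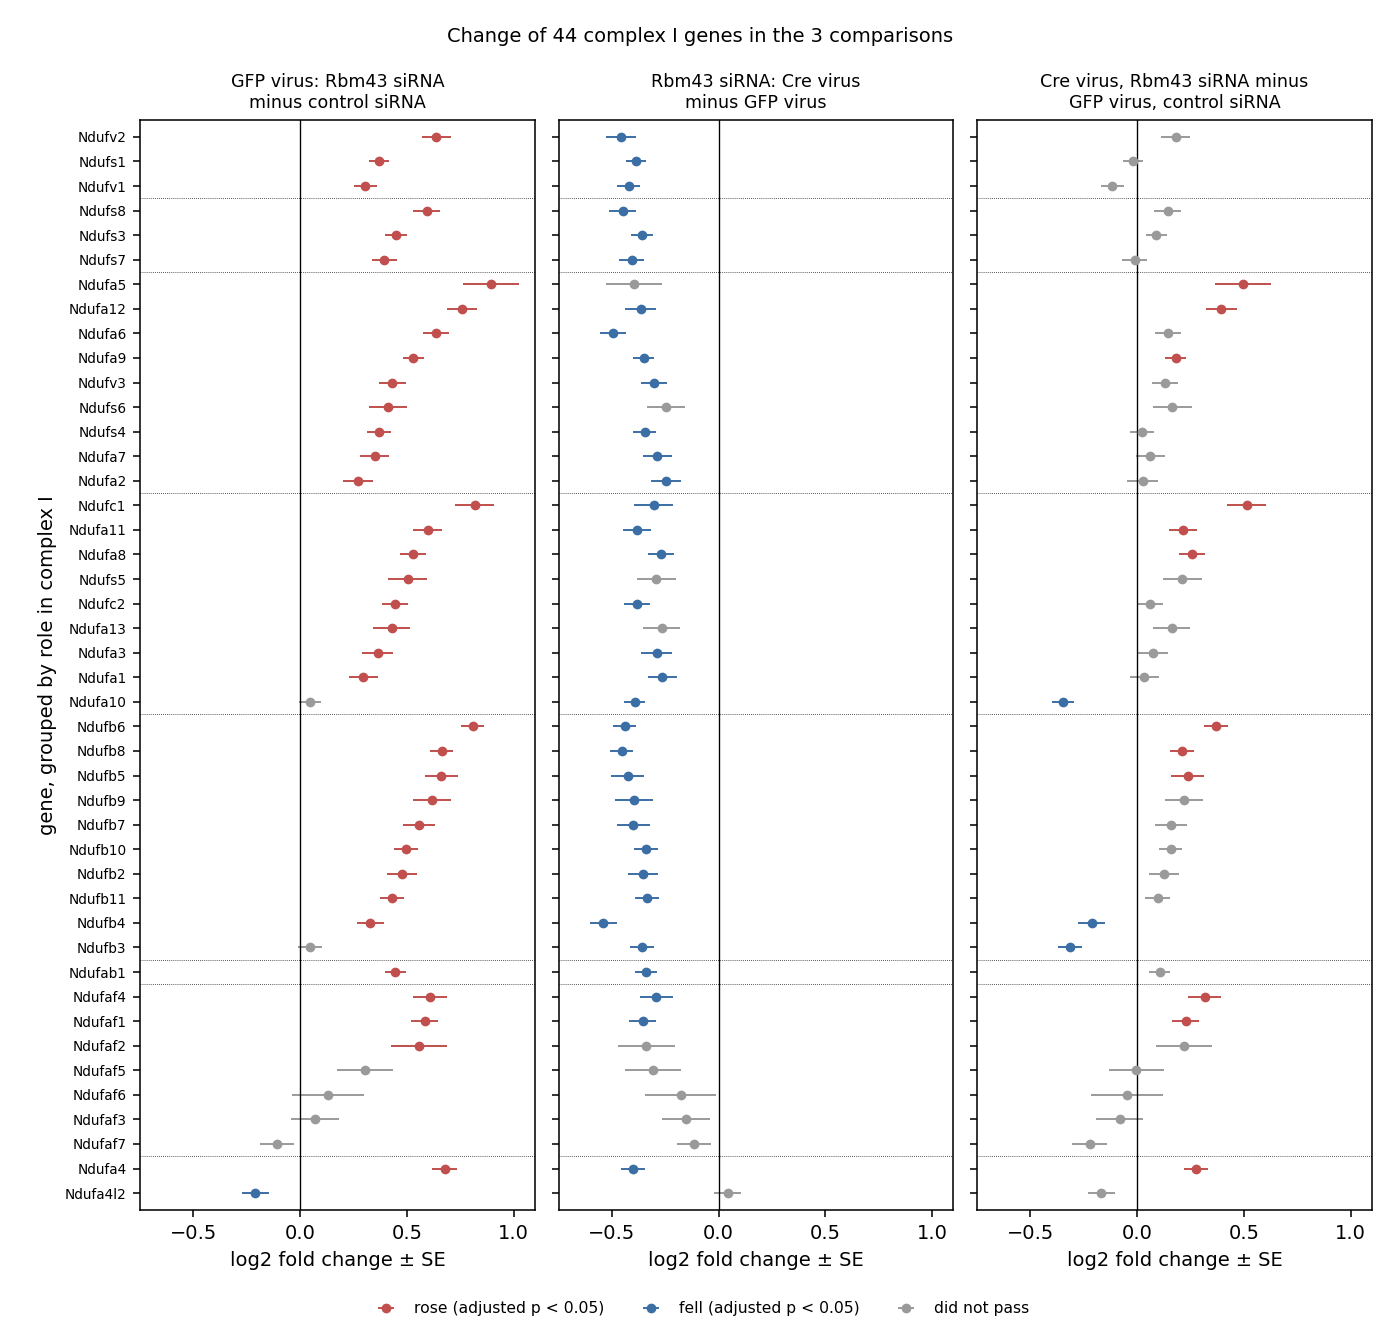
Log2 fold change ± SE of 44 of the genes in the 3 comparisons (panels), with genes grouped by role and colored by whether they rose, fell or did not pass an adjusted p of 0.05. In the first panel 37 genes lie significantly above 0, in the second 34 lie below, and in the third 12 lie above and 3 below.

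Across the comparisons, 21 genes had a called rise under Rbm43 siRNA and a called fall under Cre virus but did not pass between Cre/Rbm43 and GFP/control cells. Another 11 had both calls and were also higher in Cre/Rbm43 than in GFP/control cells. Of the others, 4 rose with Rbm43 siRNA and passed neither other test (Ndufs5, Ndufs6, Ndufa13 and Ndufaf2). Ndufa5 rose in both comparisons with GFP/control cells without a called fall. Ndufb4 rose, then fell to below GFP/control cells, and Ndufb3 and Ndufa10 fell with Cre virus without having risen. The assembly factors Ndufaf3, Ndufaf5, Ndufaf6 and Ndufaf7 passed in none of the comparisons, and Ndufa4l2 fell in the first. The share of all genes tested in each of these classes was not computed. An error in the GFP/Rbm43 libraries, which the first and second comparisons share, would move their changes in opposite directions. Each call compares groups, and none describes a course over time within the same cells. Together the 45 genes took 0.416% and 0.422% of the normalized counts in Cre/Rbm43 cells, 0.522% and 0.527% in GFP/Rbm43 cells, and 0.418% and 0.372% in GFP/control cells.

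**Figure D3:**
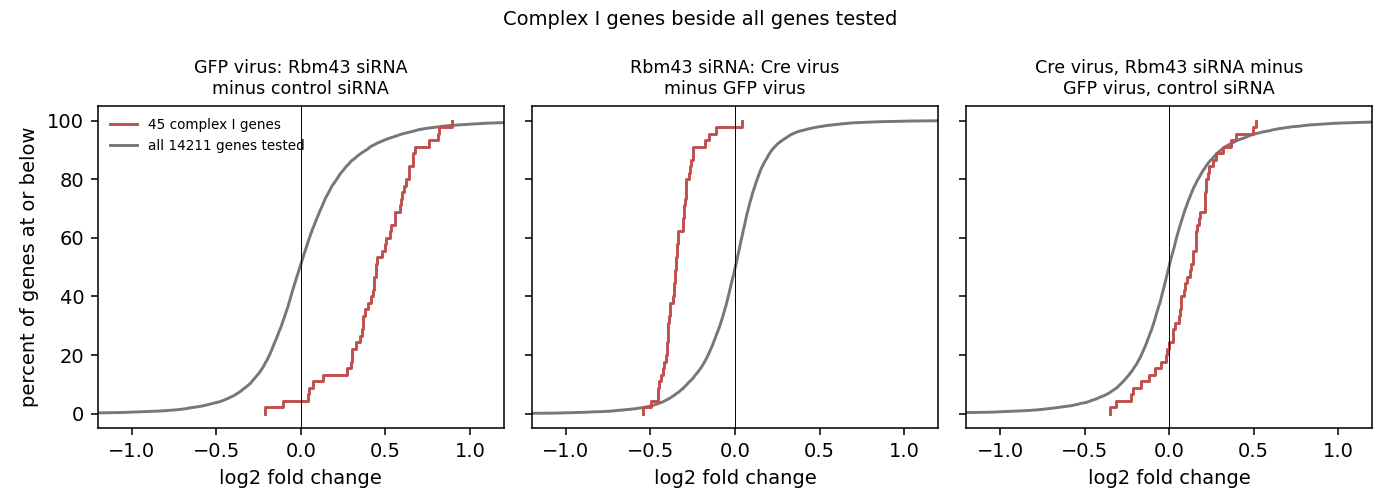
Cumulative share of genes (percent, vertical axis) at or below each log2 fold change (horizontal axis) for the 45 complex I genes and for all 14211 genes tested, in the 3 comparisons. Over most of its range the complex I curve lies to the right of all genes in the first panel (median 0.45) and to the left in the second (median −0.35), and its median in the third is 0.13.

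The NADH-oxidizing tip of the peripheral arm has 3 nuclear core subunits. Ndufv1, which binds NADH and the flavin that takes its electrons (chr19:4007384-4012806, minus strand, mm10), had 3294 and 3516 in Cre/Rbm43 cells, 4505 and 4616 in GFP/Rbm43 cells and 3877 and 3514 in GFP/control cells. Its GFP/Rbm43 libraries stood above the other 4, which overlapped. It rose by 0.30 ± 0.05 (adjusted p = 0.000366) with Rbm43 siRNA and fell by 0.42 ± 0.05 (adjusted p = 5.72e-05) with Cre virus. Ndufv2, which carries an iron-sulfur cluster beside the flavin (chr17:66078638-66101559, minus strand), had 2456 and 2480.4 in Cre/Rbm43 cells, 3449 and 3332 in GFP/Rbm43 cells and 2404 and 1971 in GFP/control cells. It had the largest rise of the core subunits, 0.64 ± 0.07 (adjusted p = 1.22e-06), and the largest fall among them, 0.46 ± 0.07 (adjusted p = 0.000238). Without GFP/control replicate 2 the rise of Ndufv2 was 0.50, below the 0.51 of Ndufs8. Ndufs1, the large subunit that carries further clusters (chr1:63143596-63176833, minus strand), had 4110.1 and 4009 in Cre/Rbm43 cells, 5275 and 5354 in GFP/Rbm43 cells and 4133 and 4101 in GFP/control cells. Cre/Rbm43 and GFP/control libraries of Ndufs1 overlapped, and both groups were well below GFP/Rbm43 cells: it rose by 0.37 ± 0.05 (adjusted p = 7.89e-06) and fell by 0.39 ± 0.05 (adjusted p = 2.76e-05), with a difference of −0.02 (95% interval −0.12 to 0.08) between Cre/Rbm43 and GFP/control cells.

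Of the core subunits of the quinone-binding module, 3 are described here. Ndufs7, which holds the last iron-sulfur cluster before the quinone and helps form its binding site (chr10:80249121-80256794, plus strand), had 960.2 and 971 in Cre/Rbm43 cells, 1283 and 1279 in GFP/Rbm43 cells and 999.7 and 948 in GFP/control cells, and rose by 0.40 ± 0.06 (adjusted p = 6.28e-05) and fell by 0.41 ± 0.06 (adjusted p = 0.000203). For Ndufs7 the libraries of Cre/Rbm43 and GFP/control cells overlapped, and they differed by −0.01 (95% interval −0.14 to 0.11). Ndufs8, which carries a pair of clusters (chr19:3908863-3912774, minus strand), had 1357 and 1417 in Cre/Rbm43 cells, 1884 and 1905 in GFP/Rbm43 cells and 1332 and 1184 in GFP/control cells, and rose by 0.59 ± 0.06 (adjusted p = 8.37e-07) and fell by 0.45 ± 0.06 (adjusted p = 0.000106). Ndufs3, a core scaffold of the module (chr2:90894634-90904827, minus strand), had 2201 and 2203 in Cre/Rbm43 cells, 2859.7 and 2790.0 in GFP/Rbm43 cells and 2108 and 2032 in GFP/control cells, and rose by 0.45 ± 0.05 (adjusted p = 2.2e-06) and fell by 0.36 ± 0.05 (adjusted p = 0.000146). In Ndufs3 and Ndufs8 the 3 groups did not overlap, with GFP/Rbm43 cells highest and Cre/Rbm43 cells between, although neither passed between Cre/Rbm43 and GFP/control cells (changes of 0.09 and 0.14).

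All 9 accessory subunits of the peripheral arm rose with Rbm43 siRNA (median 0.43), and 7 fell with Cre virus (median −0.35). Ndufa5, an accessory subunit of the quinone module (chr6:24518666-24528013, minus strand), had 1204 and 1241 in Cre/Rbm43 cells, 1644 and 1578 in GFP/Rbm43 cells and 1110.0 and 676 in GFP/control cells. Its GFP/control libraries differed more from each other, on log2(normalized count + 1), than those of any other complex I gene, and its rise of 0.89 ± 0.13 (adjusted p = 4.45e-05) was 0.54 without GFP/control replicate 2. Its difference of −0.40 with Cre virus did not pass (adjusted p = 0.0713), although both Cre/Rbm43 libraries lay below both GFP/Rbm43 libraries. It was 0.50 higher in Cre/Rbm43 than in GFP/control cells (adjusted p = 0.0141), and 0.14 and not called without GFP/control replicate 2. Ndufa12, which takes the place of the assembly factor Ndufaf2 in the finished enzyme (chr10:94198720-94221443, plus strand), had 1583 and 1599.5 in Cre/Rbm43 cells, 2041 and 2059 in GFP/Rbm43 cells and 1339.9 and 1094 in GFP/control cells. All 3 groups were apart: it rose by 0.76 ± 0.07 (adjusted p = 2.57e-07), fell by 0.37 ± 0.07 (adjusted p = 0.00265) and remained 0.39 higher in Cre/Rbm43 than in GFP/control cells (adjusted p = 0.000773; 0.25 without GFP/control replicate 2). Ndufa6, a small protein that binds the acyl carrier (chr15:82350140-82354322, minus strand), had 1373 and 1349 in Cre/Rbm43 cells, 1899 and 1938 in GFP/Rbm43 cells and 1304 and 1164 in GFP/control cells. It rose by 0.64 ± 0.06 (adjusted p = 2.78e-07) and had the second-largest fall of all members with Cre virus, 0.49 ± 0.06 (adjusted p = 3.64e-05).

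Ndufa9, a nucleotide-binding subunit at the junction of the arms, had 4157 and 4302 in Cre/Rbm43 cells, 5464 and 5330.0 in GFP/Rbm43 cells and 3866 and 3606 in GFP/control cells. It rose by 0.53 ± 0.05 (adjusted p = 2.25e-07), fell by 0.35 ± 0.05 (adjusted p = 0.000146) and stayed 0.18 higher in Cre/Rbm43 than in GFP/control cells (adjusted p = 0.019). Ndufs4, whose loss in mice gives a known mitochondrial encephalopathy, had 1541 and 1568 in Cre/Rbm43 cells, 1975 and 1977 in GFP/Rbm43 cells and 1577 and 1484 in GFP/control cells. Its Cre/Rbm43 libraries lay within the range of the GFP/control ones. It rose by 0.37 ± 0.05 (adjusted p = 5.08e-05) with Rbm43 siRNA and fell by 0.35 ± 0.05 (adjusted p = 0.00041) with Cre virus. Ndufs6, a zinc-binding subunit that joins late in assembly, rose by 0.41 ± 0.09 (adjusted p = 0.00204), and its difference of −0.25 with Cre virus did not pass (adjusted p = 0.103). The other 3, Ndufv3, Ndufa7 and Ndufa2, rose by 0.43, 0.35 and 0.27 and fell by 0.30, 0.29 and 0.25. Ndufa2 had the smallest called rise, which was not called without GFP/control replicate 2 or without GFP/Rbm43 replicate 1.

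**Figure D4:**
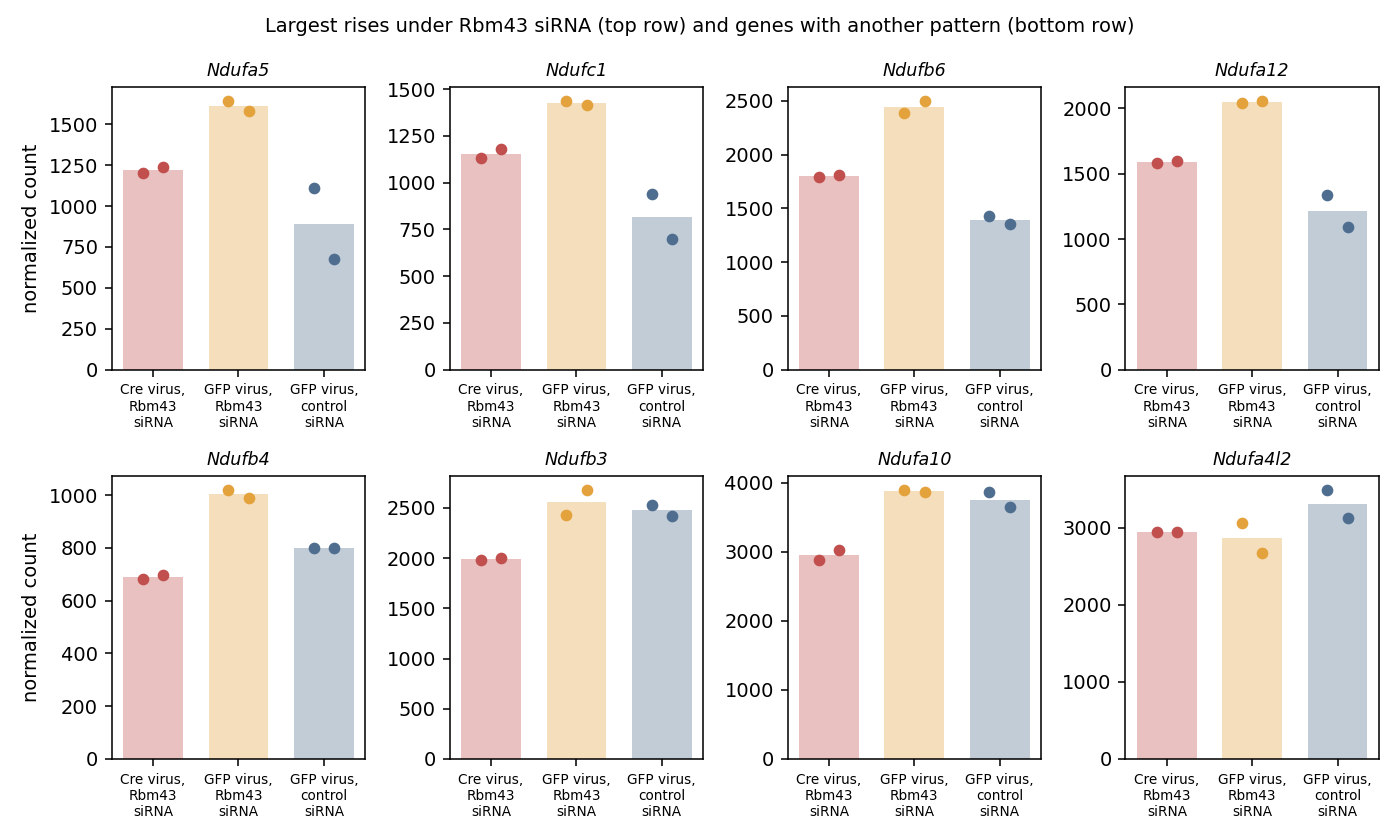
Normalized counts (vertical axes, from 0) of 8 genes in the 3 groups; bars are means of 2 libraries and points are the libraries. The top row shows the 4 largest rises with Rbm43 siRNA, all highest in GFP/Rbm43 cells. The bottom row shows Ndufb4, Ndufb3 and Ndufa10, which were lowest in Cre/Rbm43 cells, followed by Ndufa4l2, which was highest in GFP/control cells.

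Of the 9 accessory subunits of the proximal membrane arm, 8 rose with Rbm43 siRNA (median 0.44) and 7 fell with Cre virus (median −0.29). Ndufc1, a small membrane subunit (chr3:51404677-51408988, minus strand), had 1132 and 1179 in Cre/Rbm43 cells, 1438 and 1414 in GFP/Rbm43 cells and 939 and 696 in GFP/control cells. All 3 groups were apart: it rose by 0.82 ± 0.09 (adjusted p = 2.17e-06), fell by 0.30 ± 0.09 (adjusted p = 0.0469) and was 0.51 higher in Cre/Rbm43 than in GFP/control cells (adjusted p = 0.000666). That last difference was the largest of the third comparison, and it was 0.30 without GFP/control replicate 2. The fall of Ndufc1 with Cre virus was not called in 10 of the 18 alternative settings. Ndufa11 and Ndufa8, both also higher in Cre/Rbm43 than in GFP/control cells, rose by 0.60 and 0.53 and fell by 0.38 and 0.27. Ndufa8 is an intermembrane-space protein with paired cysteines, like Ndufs5. Ndufs5 had 1491 and 1531 in Cre/Rbm43 cells, 1818 and 1883 in GFP/Rbm43 cells and 1521 and 1119 in GFP/control cells, a rise of 0.50 ± 0.09 (adjusted p = 0.000401) that was 0.28 without GFP/control replicate 2. Ndufc2, Ndufa3 and Ndufa1 rose by 0.44, 0.36 and 0.30 and fell by 0.38, 0.29 and 0.26. Ndufa13, also known as GRIM-19, rose by 0.43 ± 0.09 (adjusted p = 0.00108), and its difference of −0.27 with Cre virus did not pass (adjusted p = 0.0643).

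Ndufa10 was the exception of the proximal arm. It resembles nucleoside kinases in fold (chr1:92439010-92473860, minus strand) and had 2878 and 3019.7 in Cre/Rbm43 cells, 3893 and 3856 in GFP/Rbm43 cells and 3857 and 3645 in GFP/control cells. The GFP/Rbm43 and GFP/control libraries overlapped and the Cre/Rbm43 libraries lay below all others. Its change with Rbm43 siRNA was 0.05 (95% interval −0.06 to 0.15, adjusted p = 0.555). The smallest called rise, of Ndufa2, was 0.27 (95% interval 0.12 to 0.42), and the difference between these genes was not tested. With Cre virus it fell by 0.39 ± 0.05 (adjusted p = 4.86e-05), and it was 0.35 ± 0.05 lower in Cre/Rbm43 than in GFP/control cells (adjusted p = 7.22e-05).

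In the distal membrane arm, built around the last proton pumps, 9 of the 10 Ndufb subunits rose with Rbm43 siRNA (median 0.53) and all 10 fell with Cre virus (median −0.40). Ndufb6 (chr4:40270591-40279421, minus strand) had 1794 and 1807 in Cre/Rbm43 cells, 2385 and 2502 in GFP/Rbm43 cells and 1432 and 1357 in GFP/control cells. Its 3 groups were apart with little spread: it rose by 0.81 ± 0.05 (adjusted p = 4.57e-09), the smallest p among the members, fell by 0.44 ± 0.05 (adjusted p = 3.87e-05) and stayed 0.37 higher in Cre/Rbm43 than in GFP/control cells (adjusted p = 9.05e-05). Ndufb8, often used as the blotting marker of complex I (chr19:44548572-44555440, minus strand), had 2753 and 2853 in Cre/Rbm43 cells, 3848 and 3829 in GFP/Rbm43 cells and 2552 and 2299 in GFP/control cells. It rose by 0.66 ± 0.05 (adjusted p = 4.47e-08) and fell by 0.45 ± 0.05 (adjusted p = 3.09e-05). Ndufb5 rose by 0.66, Ndufb9, a further acyl carrier-binding subunit, by 0.62, Ndufb7 by 0.56, Ndufb10 by 0.50, Ndufb2 by 0.48 and Ndufb11 by 0.43. With Cre virus these 6 fell by 0.43, 0.40, 0.40, 0.34, 0.35 and 0.34, in the same order. The rise of Ndufb9 was 0.40 without GFP/control replicate 2.

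Ndufb4 and Ndufb3 departed from the rest of the distal arm. Ndufb4 (chr16:37647170-37654453, minus strand) had 680.3 and 698 in Cre/Rbm43 cells, 1019.6 and 988 in GFP/Rbm43 cells and 799 and 799.7 in GFP/control cells. All 3 groups were apart, with Cre/Rbm43 cells lowest. It rose by 0.33 ± 0.06 (adjusted p = 0.000776) and had the largest fall of all members with Cre virus, 0.54 ± 0.06 (adjusted p = 2.41e-05). It was 0.21 ± 0.06 lower in Cre/Rbm43 than in GFP/control cells (adjusted p = 0.0284). That last difference was not called without either Cre/Rbm43 replicate (−0.19 and −0.23). RefSeq lists 2 further Ndufb4 genes, Ndufb4b and Ndufb4c, so reads may be split among the copies. Ndufb3 (chr1:58586384-58595964, plus strand) had 1981 and 1998 in Cre/Rbm43 cells, 2432 and 2679.9 in GFP/Rbm43 cells and 2528 and 2423 in GFP/control cells. As with Ndufa10, the groups with GFP virus overlapped and the Cre/Rbm43 libraries were the lowest. Its change with Rbm43 siRNA was 0.04 (95% interval −0.07 to 0.16; adjusted p = 0.62), and it fell by 0.36 ± 0.06 (adjusted p = 0.000323) with Cre virus and was 0.31 ± 0.06 lower than in GFP/control cells (adjusted p = 0.000573). The acyl carrier Ndufab1, shared by both arms and by mitochondrial fatty acid and lipoate synthesis, had 2434 and 2429.5 in Cre/Rbm43 cells, 3041 and 3118 in GFP/Rbm43 cells and 2278 and 2243 in GFP/control cells, and rose by 0.45 ± 0.05 (adjusted p = 1.78e-06) and fell by 0.34 ± 0.05 (adjusted p = 0.000182).

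The 7 assembly factors divided. Ndufaf1, a component of the complex that assembles the membrane arm (chr2:119655446-119662827, minus strand), had 764 and 756 in Cre/Rbm43 cells, 974 and 974 in GFP/Rbm43 cells and 658 and 640.2 in GFP/control cells. Its groups were apart, and it rose by 0.58 ± 0.06 (adjusted p = 1.59e-06) and fell by 0.36 ± 0.06 (adjusted p = 0.00122). Ndufaf4, which works on the quinone module together with Ndufaf3 (chr4:24898083-24905001, plus strand), had 469 and 460.2 in Cre/Rbm43 cells, 562 and 576 in GFP/Rbm43 cells and 385 and 362 in GFP/control cells. It rose by 0.61 ± 0.08 (adjusted p = 9.06e-06) and fell by 0.29 ± 0.08 (adjusted p = 0.022), and both it and Ndufaf1 were still higher in Cre/Rbm43 than in GFP/control cells (by 0.32 and 0.23), differences not called without either Cre/Rbm43 replicate. Ndufaf2, the relative of Ndufa12 that precedes it during assembly, had 231 and 234 in Cre/Rbm43 cells, 292 and 296 in GFP/Rbm43 cells and 240.3 and 166 in GFP/control cells. Its rise of 0.56 ± 0.13 (adjusted p = 0.00424) was 0.29 and not called without GFP/control replicate 2.

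The other 4 assembly factors passed in no comparison. Ndufaf3 had 251 and 219 in Cre/Rbm43 cells, 284 and 239 in GFP/Rbm43 cells and 237 and 259 in GFP/control cells, a change of 0.07 ± 0.11 (adjusted p = 0.701) with Rbm43 siRNA. Ndufaf5, known from human cells to hydroxylate an arginine of NDUFS7, had 149 and 170.4 in Cre/Rbm43 cells, 204 and 191 in GFP/Rbm43 cells and 179 and 142 in GFP/control cells, a change of 0.31 ± 0.13 (adjusted p = 0.104). Ndufaf6, an early factor, had 84.2 and 99.2 in Cre/Rbm43 cells, 91.3 and 118 in GFP/Rbm43 cells and 87.4 and 102 in GFP/control cells, a change of 0.13 ± 0.17 (adjusted p = 0.63). For Ndufaf3 and Ndufaf6 the libraries of all 3 groups overlapped, while for Ndufaf5 both GFP/Rbm43 libraries lay above the other 4. Ndufaf7, known as a methyltransferase that acts early in assembly, had 479.6 and 445 in Cre/Rbm43 cells, 497 and 504 in GFP/Rbm43 cells and 508 and 573 in GFP/control cells. It was the one assembly factor with its highest values in GFP/control cells, and its changes of −0.11 ± 0.08 (adjusted p = 0.377) with Rbm43 siRNA and −0.11 ± 0.08 (adjusted p = 0.472) with Cre virus did not pass. Their 95% intervals with Rbm43 siRNA reach 0.31, 0.58, 0.48 and 0.06 for Ndufaf3, Ndufaf5, Ndufaf6 and Ndufaf7. For the first 3 the interval thus includes a rise as large as that of some subunits.

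The 2 proteins outside the complex went opposite ways. Ndufa4, long counted as a complex I subunit and now placed in complex IV (chr6:11900292-11907497, minus strand), had 3395 and 3596 in Cre/Rbm43 cells, 4584 and 4644 in GFP/Rbm43 cells and 3082 and 2702 in GFP/control cells. Like most subunits it rose by 0.68 ± 0.06 (adjusted p = 7.12e-08) and fell by 0.40 ± 0.06 (adjusted p = 0.00018), and it stayed 0.28 higher in Cre/Rbm43 than in GFP/control cells (adjusted p = 0.00268; 0.18 without GFP/control replicate 2). Its paralog Ndufa4l2, known as a hypoxia-induced gene (chr10:127514967-127517154, plus strand), had 2942 and 2946 in Cre/Rbm43 cells, 3059 and 2668 in GFP/Rbm43 cells and 3492 and 3131 in GFP/control cells. The GFP/control libraries were the highest and did not overlap with the others. Its fall of 0.21 ± 0.06 (adjusted p = 0.0207) was not called in 7 of the 18 alternative settings, among them without GFP/control replicate 1 (−0.13) and without GFP/Rbm43 replicate 2 (−0.11). With Cre virus the change was 0.04 ± 0.06 (adjusted p = 0.764).

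Levels were compared between genes per kilobase of transcript, using the shortest principal transcript of GENCODE M21. Among the 36 subunits the median level was 1986 normalized counts per kilobase in Cre/Rbm43 cells, 2518 in GFP/Rbm43 cells and 1918 in GFP/control cells. Ndufb4 was the lowest and Ndufb8 the highest subunit in every group, 5.81-fold apart in Cre/Rbm43 cells, 5.46-fold in GFP/Rbm43 cells and 4.33-fold in GFP/control cells. The assembly factors were lower, with medians of 158, 176 and 167 per kilobase in the same order of groups, and Ndufaf6 was the lowest of all members. Ndufa4 was the highest of all members, at 7733 per kilobase in Cre/Rbm43 cells, 10210.0 in GFP/Rbm43 cells and 6399 in GFP/control cells. The order of the 45 genes changed little: the Spearman correlation of levels per kilobase across genes was 0.992 between Cre/Rbm43 and GFP/Rbm43 cells and 0.962 between GFP/Rbm43 and GFP/control cells, as a description across genes that share these libraries.

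The 2 GFP/control libraries differed for these genes. In 41 of the 45, replicate 2 lay below replicate 1, by a median of 0.16 on the log2 scale, while the replicates of Cre/Rbm43 cells and of GFP/Rbm43 cells differed by medians of 0.02 and 0.001. Over all genes tested the GFP/control replicates differed by a median of −0.004. Of the complex I genes, 26 have a principal transcript under 1000 bases, and 25 of these were lower in replicate 2, with a median difference of 0.18. The other 19 have longer ones, and 16 of these were lower too, with a median difference of 0.09. Over all protein-coding genes tested, the 860 with a principal transcript under 1000 bases were lower in replicate 2 by a median of 0.11, and the 11700 with longer ones differed by a median of 0.002. Across the 45 genes, the Spearman correlation of the replicate difference with transcript length was 0.42 in GFP/control cells, a description over genes of 1 pair of libraries. In the first comparison 22.9% of those 860 short genes rose and 9.65% fell, in the second 0.814% rose and 16.3% fell, and in the third 8.37% rose and 11.4% fell. The part of transcript length in the changes of the complex I genes was not tested. Without GFP/control replicate 2 the median rise with Rbm43 siRNA was 0.36 and 36 of the 45 rose, and without replicate 1 it was 0.55 and 39 rose. Without replicate 2, called changes of 10 genes were smaller by more than 1.5 times, those of Ndufa1, Ndufa2, Ndufa3, Ndufa5, Ndufa7, Ndufa13, Ndufb9, Ndufs5, Ndufs6 and Ndufaf2.

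**Figure D5:**
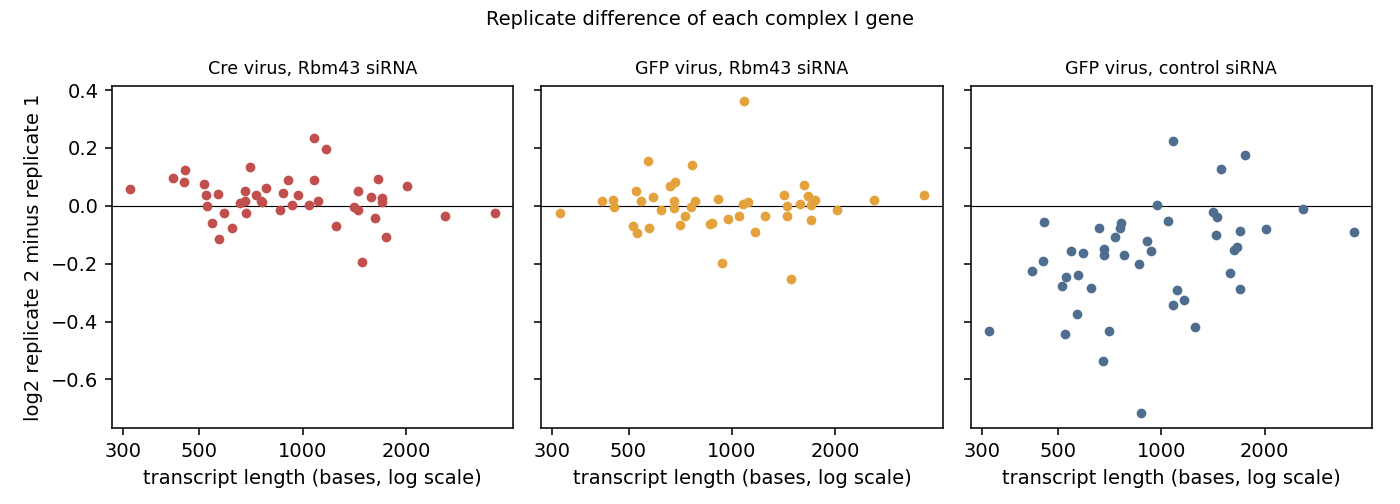
Log2 difference between replicate 2 and replicate 1 (vertical axis) against transcript length in bases (horizontal axis, log scale) for each of the 45 genes, with 1 panel per group. In GFP/control cells 41 of the 45 points lie below 0, with a median of −0.16, and in the other groups they scatter around 0.

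Complex I is also built from 7 core subunits encoded in mitochondrial DNA, the proton-pumping part of the membrane arm. With Rbm43 siRNA 5 of these 7 mRNAs rose (median 0.26), with Cre virus 6 fell (median −0.32), and between Cre/Rbm43 and GFP/control cells 1 rose. Over all genes tested, 13.5% rose, 5.88% fell and 8.47% rose in these comparisons in turn. ND1, next to the quinone site, had 91377 and 95382 in Cre/Rbm43 cells, 120059.7 and 126328 in GFP/Rbm43 cells and 97317 and 89211 in GFP/control cells. It rose by 0.40 ± 0.06 (adjusted p = 3.08e-05) and fell by 0.40 ± 0.06 (adjusted p = 0.000159), and its Cre/Rbm43 and GFP/control libraries overlapped. ND4, of the distal arm, rose by 0.19 ± 0.05 (adjusted p = 0.00879) and fell by 0.33 ± 0.05 (adjusted p = 0.000301). ND6, which is transcribed from the other strand of mitochondrial DNA, rose by 0.38 ± 0.05 (adjusted p = 1.16e-05), fell by 0.16 ± 0.05 (adjusted p = 0.0455) and was 0.22 higher in Cre/Rbm43 than in GFP/control cells (adjusted p = 0.00536). ND3 passed in none. The 7 together had 314724 and 320187 normalized counts in Cre/Rbm43 cells, 389389 and 410851 in GFP/Rbm43 cells, and 328117 and 314796 in GFP/control cells. Libraries were made with an mRNA kit, and its uptake of mitochondrial transcripts was not tested. Leaving out a Cre/Rbm43 library brought the falls to 2 (without replicate 1) and 3 (without replicate 2), and the higher level of ND6 in Cre/Rbm43 cells was not called without replicate 1.

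Of 13 other assembly factors listed, 12 were in the table and tested. For scale, 13.5% of all genes tested rose with Rbm43 siRNA and 5.88% fell with Cre virus. With Rbm43 siRNA 6 rose (median 0.22) and with Cre virus 3 fell (median −0.20), and between Cre/Rbm43 and GFP/control cells 0 passed by limma, edgeR or DESeq2, with 1 higher and 0 lower at an unadjusted p under 0.05 in limma (1 rose without GFP/control replicate 1, and 1 fell without replicate 2). Ecsit, Acad9 and Tmem126b, partners of Ndufaf1 in membrane-arm assembly, rose by 0.44, 0.25 and 0.30, and so did Foxred1, a further membrane-arm factor, by 0.26. With Cre virus Foxred1 fell by 0.38 ± 0.06 (adjusted p = 0.000471), Tmem126b by 0.34 and Acad9 by 0.25, while the difference of Ecsit, −0.22, did not pass (adjusted p = 0.176). The counts depended on single libraries: without GFP/Rbm43 replicate 2 there was 1 rise, and without it or either Cre/Rbm43 replicate there was 1 fall, while without GFP/control replicates 1 and 2 there were 5 and 6 falls. The row of Ndufaf8 had 129 and 130.0 in Cre/Rbm43 cells, 123 and 149 in GFP/Rbm43 cells and 124 and 123 in GFP/control cells and passed in no comparison.

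Known activators of these genes were measured in the same libraries. Ppargc1a rose by 1.17 ± 0.10 (adjusted p = 7.68e-08) with Rbm43 siRNA, and the change of its whole-gene count with Cre virus, 0.18, did not pass (adjusted p = 0.33). Its relative Ppargc1b had 443 and 419 in Cre/Rbm43 cells, 584 and 617 in GFP/Rbm43 cells and 295 and 276 in GFP/control cells, and rose by 1.07 ± 0.08 (adjusted p = 1.97e-08) and fell by 0.48 ± 0.08 (adjusted p = 0.000878). Esrra had 549 and 567 in Cre/Rbm43 cells, 809.9 and 726 in GFP/Rbm43 cells and 533 and 466 in GFP/control cells, and rose by 0.62 ± 0.08 (adjusted p = 1.15e-05) and fell by 0.46 ± 0.08 (adjusted p = 0.00105). Esrra libraries of Cre/Rbm43 cells lay just above those of GFP/control cells, with a difference of 0.16 ± 0.08 (adjusted p = 0.201) that did not pass. Nrf1 and Gabpa passed in none of the comparisons.

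Markers of other cell types were set beside these results. Over all genes tested, 13.5% rose and 9.76% fell with Rbm43 siRNA, and 2.62% rose and 5.88% fell with Cre virus. The summed level of 10 adipocyte markers was 214403 to 216312 in Cre/Rbm43 cells, 256694 to 257910 in GFP/Rbm43 cells and 180236 to 196030 in GFP/control cells. Fabp4, a fatty acid carrier, made up at least 69.6% of that sum in every library. With Rbm43 siRNA 6 of the 10 rose and 2 fell, and with Cre virus 7 fell. The median change of the 10 was 0.34 with Rbm43 siRNA and −0.29 with Cre virus. Among the 6 rises were those of Pparg (0.64), Fabp4 (0.54) and Cidec (0.48), which fell with Cre virus by 0.37, 0.25 and 0.28. The difference in Adipoq with Rbm43 siRNA was 0.07 ± 0.05 (adjusted p = 0.314) and did not pass, and Retn, the hormone resistin, fell by 1.56 ± 0.08 (adjusted p = 6.48e-11). The 10 preadipocyte and fibroblast markers summed to 626802 to 631458, 577473 to 603777 and 619170 to 623939 in the same order of groups, with 1 rise and 3 falls with Rbm43 siRNA and 0 calls with Cre virus by limma (3 higher and 1 lower at an unadjusted p under 0.05; edgeR and DESeq2 each called 1 higher). The 6 mural and smooth muscle markers summed to 68193 to 71324, 57248 to 59666 and 50070 to 55356, with 3 rises with Rbm43 siRNA and 4 with Cre virus. The 8 macrophage markers summed to 1649 to 1735, 1415 to 1647 and 1650 to 1703, of which Lyz2 made up 48.3% to 54.4%. With Rbm43 siRNA 3 of the 8 fell, Csf1r by 0.57, Cd14 by 0.56 and Itgam by 0.68, and with Cre virus 0 were called by limma, edgeR or DESeq2 (2, 2 and 1 higher at an unadjusted p under 0.05). The 6 endothelial markers summed to 320 to 348, 276 to 286 and 250 to 251. With Rbm43 siRNA 0 of them were called by limma, edgeR or DESeq2, and 0 had an unadjusted p under 0.05. With Cre virus 0 were called by limma or DESeq2 and 1 rose by edgeR (2 higher by limma at an unadjusted p under 0.05). In Cre/Rbm43 against GFP/control cells Cd14 fell by 0.55 and Kdr, an endothelial receptor, rose by 0.61. The only skeletal muscle marker high enough to be tested, Acta1, differed by 0.05 ± 0.08 (adjusted p = 0.714) with Rbm43 siRNA, which did not pass, rose by 0.57 ± 0.08 (adjusted p = 0.000152) with Cre virus and was 0.62 ± 0.08 (adjusted p = 2.59e-05) higher in Cre/Rbm43 than in GFP/control cells. The part of any of these in the changes of the complex I genes was not tested.

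Some of the counts cannot be assigned to 1 gene with certainty, partly because the strand setting of the counting is not given. Among the larger overlaps, exons of Ndufb5 overlap those of Mrpl47, of Ndufa13 those of Tssk6, of Ndufb6 those of Smim27, and of Ndufaf2 those of a non-coding gene, each on the opposite strand and over 616, 375, 257 and 1955 bases. Exons of Ndufs1 and Ndufab1 overlap those of Ino80dos and Gm44986, also on the opposite strand, over 489 and 269 bases. On the same strand, where no strand setting separates reads, Ndufb9 overlaps Gm49356, Ndufb2 Gm42420 and Ndufb8 Gm20538. Those exons share 201, 145 and 134 bases. Further copies or pseudogenes are annotated in RefSeq for Ndufa11, Ndufa12, Ndufab1, Ndufs5 and Ndufs6 as well as Ndufb4, and values of these 6 genes could include or lack reads of the copies.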

How the data were processed

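Per the labels' protocols, libraries were made from total RNA with a stranded mRNA kit and read as paired ends of 150 bases. Tools named in the submitters' processing notes are STAR 2.7.8, fastp 0.23.2 and DESeq2 2.11.40.7, with build mm10. Not given in the sources used here are the counter, its annotation and its strand setting. The authors deposited a normalized signal per gene, counts divided by 1 size factor per library; 100% of values were whole multiples of 1 read within 0.01 read. Groups came from the sample titles. Genes with at least 10 normalized counts in at least 2 libraries were tested with limma 3.58.1 (R 4.3.3, mean-variance trend) on log2(normalized count + 1), which understates changes of low genes. All 6 libraries entered 1 fit with 3 residual degrees of freedom. Alternatives included pseudocounts of 0.5 and 5, a minimum of 50, other scalings, a replicate block, and edgeR 4.0.16 and DESeq2 1.42.0 on recovered reads. The code was run on simulated data with rises set only in GFP/Rbm43 cells and the same spread setting for every gene. That run does not measure the error of the calls given here. Members and lists were chosen with earlier results of these data known. Full values were given for the nuclear core subunits (1 gene, kept in the counts, is not reported here), assembly factors, Ndufa4, Ndufa4l2 and the 4 largest changes each way in each comparison. Positions are from GENCODE M21 (mm10).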

Additional observations from a re-analysis of the deposited data

How the results depend on the processing

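No member changed direction with its call under any of the 18 alternatives, and scaling (upper-quartile, total, TMM) moved the median of all genes by at most 0.03. Besides fits that left out a library, the counts that moved most in proportion are given here, and smaller moves are not all listed. Without the variance trend, members' calls were 0 falls with Rbm43 siRNA, 0 with Cre virus, and 0 rises and 0 falls in Cre/Rbm43 against GFP/control cells. In that fit ND mRNAs had 3 rises, 0 falls and 0 rises in the comparisons in turn, and other assembly factors 1 rise and 0 falls. Without a filter there were 0 falls with Rbm43 siRNA and 6 rises in the third comparison. Of the 35 members' falls with Cre virus, 10 were not called without a filter. With only the 2 groups compared there were 0 falls with Rbm43 siRNA and 6 falls of other assembly factors with Cre virus. DESeq2 called 7 members higher in the third comparison and 3 other assembly factors higher with Rbm43 siRNA, and edgeR called 1 ND mRNA lower in the third.

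Over the 6 fits that left out 1 library, where a lone library is assumed to vary like the other groups, rises with Rbm43 siRNA numbered 36 to 39 and falls 0 to 1, falls with Cre virus 21 to 40, and rises and falls in the third comparison 3 to 26 and 2 to 5. In the same fits ND mRNAs had 4 to 6 rises, 2 to 7 falls, and 0 to 1 rises and 0 to 1 falls, and other assembly factors 1 to 8 rises, 1 to 6 falls, and 0 to 1 rises and 0 to 1 falls. Of the calls, 36 of 38 rises with Rbm43 siRNA and 18 of 35 falls with Cre virus held in all 6 fits.

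Replicate numbers did not pair the libraries: replicate differences correlated at 0.02, −0.04 and −0.04 between groups over 14211 genes. With replicate number as a block, 38 members rose and 1 fell with Rbm43 siRNA, 38 fell with Cre virus, and 14 rose and 4 fell in the third comparison. With 2 libraries a group, changes of the low assembly factors are the least precise.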

Other observations

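Many complex I genes start next to another gene. In GENCODE M21 an opposite-strand protein-coding gene starts within 1000 bases of 20 of the 45 complex I genes (44.4%), against 2382 of 21938 protein-coding genes (10.9%). The 21938 include genes that were not tested here, while all 45 were, and the share among tested genes was not computed. Of the 20 neighbours, 17 were tested. In GFP/Rbm43 against GFP/control cells 2 of the 17 rose and 1 fell, where 13.5% of all genes tested rose and 9.76% fell, with a median change of 0.04, against 0.41 for the complex I genes beside them. In Cre/Rbm43 against GFP/Rbm43 cells 2 of the 17 fell, where 5.88% of all genes fell, with a median of −0.02, against −0.34. In Cre/Rbm43 against GFP/control cells 2 of the 17 rose, where 8.47% of all genes rose, with a median of −0.01, against 0.09.

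The pair of Ndufb3 and Fam126b, named after its values were seen, starts 61 bases apart. Fam126b, which encodes a component of a lipid kinase complex at the plasma membrane, had 2304 and 2278 in Cre/Rbm43 cells, 2680.1 and 2931 in GFP/Rbm43 cells and 1668 and 1773 in GFP/control cells. It rose by 0.70 ± 0.06 (adjusted p = 3.03e-08) with Rbm43 siRNA, where the difference for Ndufb3 was 0.04 ± 0.06 (adjusted p = 0.62). The pair fell with Cre virus, Fam126b by 0.29 and Ndufb3 by 0.36, and between Cre/Rbm43 and GFP/control cells Fam126b was 0.41 higher and Ndufb3 0.31 lower. The difference between the pair was not tested. Mrpl47, beside Ndufb5, rose by 0.35 ± 0.09 (adjusted p = 0.00789) and fell by 0.40 ± 0.09 (adjusted p = 0.00773), and shares exon bases with Ndufb5. Eef1b2, which starts 8 bases from Ndufs1, fell by 0.19 ± 0.05 (adjusted p = 0.0108) where Ndufs1 rose by 0.37.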
